A study of Rattus norvegicus with 22 samples.

Results

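Interferon-stimulated genes are the genes that a cell switches on when an interferon reaches its receptor. A list of 39 of them was followed in the spinal cord of injured and sham rats, with and without tamoxifen (TMX), and 35 of the 39 were measured. Each gene was taken at the transcript that the platform annotation gives under its symbol. Where there were several, the one with the highest mean over the 22 arrays was to be taken. This applied to 0 of the genes. Of the 35 genes, 26 came from a list of genes induced by type I interferons and 9 from a list of genes induced by interferon gamma. Nlrc5, Xaf1, Herc6 and Gbp4 have no transcript under that symbol in the annotation used and were not analysed here.

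The animals were adult male Long-Evans rats, 6 in SCI/TMX+, 5 in SCI/TMX-, 6 in Sham/TMX+ and 5 in Sham/TMX-, with 1 Clariom S array per rat. In the SCI (spinal cord injury) groups a rod of 10 g was dropped from 50 mm onto the cord after laminectomy at the ninth thoracic vertebra. Sham rats had surgery on the soft tissue only, so the laminectomy and the contusion are confounded in each SCI minus sham difference. TMX+ rats received 5 mg/kg TMX into the peritoneum 30 min after surgery, TMX- rats the ethyl alcohol and corn oil in which it was suspended, and a 20 mm stretch of cord was taken at 24 h. The study asked which transcripts change in the acute phase of SCI and whether TMX modifies that change. Rats are named by their sample labels, which end in b in SCI/TMX+, c in SCI/TMX-, d in Sham/TMX+ and a in Sham/TMX-.

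The arrays covered 23188 transcripts, and their median log2 signals lay between 5.41 and 5.47. Pearson correlations between arrays lay between 0.960 and 0.993. The defining genes of cord tissue were present in every rat, with mean log2 signals of 8.43 to 9.38 over 5 neuronal genes and 11.0 to 11.6 over 4 oligodendrocyte genes. RNA came from whole tissue, in which fewer cells of a type and less RNA per cell cannot be told apart. Animals 13c and 15c had the lowest mean levels of the 35 genes among the SCI/TMX- rats, and the counts are also given without them.

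Type I interferons signal through a receptor that almost every cell carries, and interferon gamma through another one. Receptor-bound kinases then phosphorylate STAT proteins. After type I interferon, Stat2 joins another STAT and Irf9 in the complex ISGF3, which binds a DNA element called the ISRE. After interferon gamma, a STAT dimer binds a palindromic element called GAS. The induced proteins sense viral nucleic acid, block viral replication, tag other proteins with ISG15 or feed peptides to MHC class I molecules. In the central nervous system, microglia, astrocytes, endothelium and infiltrating leukocytes can all mount this response.

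The promoters of the genes were searched for both elements, since they are the DNA through which interferon acts. RefSeq windows of 300 bases on rat build GRCr8 ran from 250 bases before the gene start to 50 after it. They were matched by gene identifier for 27 of the 35 genes. Dhx58, Zbp1, Ifit1, Ifit2, Mx2, Isg15, Usp18 and RGD1309362 had no entry in the table. The ISRE core, GAAA, any 2 bases and GAAA again, on either strand, was found in 18 of the 27 windows (66.7%), against 3.92% of all 33469 windows and 3.42% of the 12924 windows of genes on the array. The GAS letters TTCNNNGAA, which read the same on both strands, were found in 11 of the 27 windows (40.7%), against 8.87% of all windows and 7.88% of those of genes on the array. Both motifs stood in 8 windows and neither in 6, those of Stat2, Oasl, Mx1, Cmpk2, Parp9 and Psmb9. The windows of Cmpk2, Parp9, Irf7 and Irf9 lie wholly inside the annotated span of their gene. Bases before the outer start of these genes were not searched. The match is to letters only and does not show binding. The 8 stretches printed here belong to genes that were called after SCI, among them Igtp and Parp14, in which both motifs lie side by side. Each is given 5′ to 3′ on the strand of the gene with the ISRE core in capitals. A core on the opposite strand appears as a pair of TTTC.
Gbp2: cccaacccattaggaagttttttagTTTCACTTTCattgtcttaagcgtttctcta
Rsad2: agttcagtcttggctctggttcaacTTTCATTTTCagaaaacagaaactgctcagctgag
Ifit3: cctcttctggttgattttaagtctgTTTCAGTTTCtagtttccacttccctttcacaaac
Ifih1: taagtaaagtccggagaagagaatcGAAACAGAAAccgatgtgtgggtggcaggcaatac
Oas1b: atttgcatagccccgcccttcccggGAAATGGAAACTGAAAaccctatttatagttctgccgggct
Tap1: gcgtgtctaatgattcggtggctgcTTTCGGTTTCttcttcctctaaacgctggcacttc
Igtp: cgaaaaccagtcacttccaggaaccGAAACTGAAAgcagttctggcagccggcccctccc
Parp14: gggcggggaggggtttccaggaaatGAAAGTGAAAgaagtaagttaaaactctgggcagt

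On GRCr8 these stretches lie at chr2:234005671-234005726 on the plus strand (Gbp2), chr6:48788233-48788292 on the minus strand (Rsad2) and chr1:241527257-241527316 on the plus strand (Ifit3). Those of Ifih1, Oas1b and Tap1 lie at chr3:67683993-67684052, chr12:41395871-41395936 and chr20:4668630-4668689, all on the minus strand. Those of Igtp and Parp14 lie at chr10:42874919-42874978 and chr11:78408033-78408092 on the plus strand. All 8 stretches end before the start used in the table, and 6 lie wholly outside the annotated span of their gene. The span reaches 13 bases into the stretch of Rsad2 and 21 into that of Oas1b. In Oas1b the capitals hold 2 overlapping cores, and 54 of its 66 bases are equal to the same stretch of its neighbour Oas1a. In Igtp, Irgm and Parp14 the GAS letters end 2 bases before the ISRE core. The 21 matches of the core in the 18 windows started between positions -147 and 11 from the gene start. The 18 genes with a core had a median log2 fold change of 1.15 in SCI/TMX+ minus Sham/TMX+ and 1.33 in SCI/TMX- minus Sham/TMX-, and the 9 genes without one had 0.97 and 0.82. Cmpk2, Parp9 and Irf9, whose windows lie inside the gene span, are among the genes without a core. For the GAS letters the order was the reverse. In the same 2 comparisons the 11 genes with them had 0.97 and 0.78, and the 16 without them 1.15 and 1.07. These medians are a description, and no test was run on them.

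**Figure D1:**
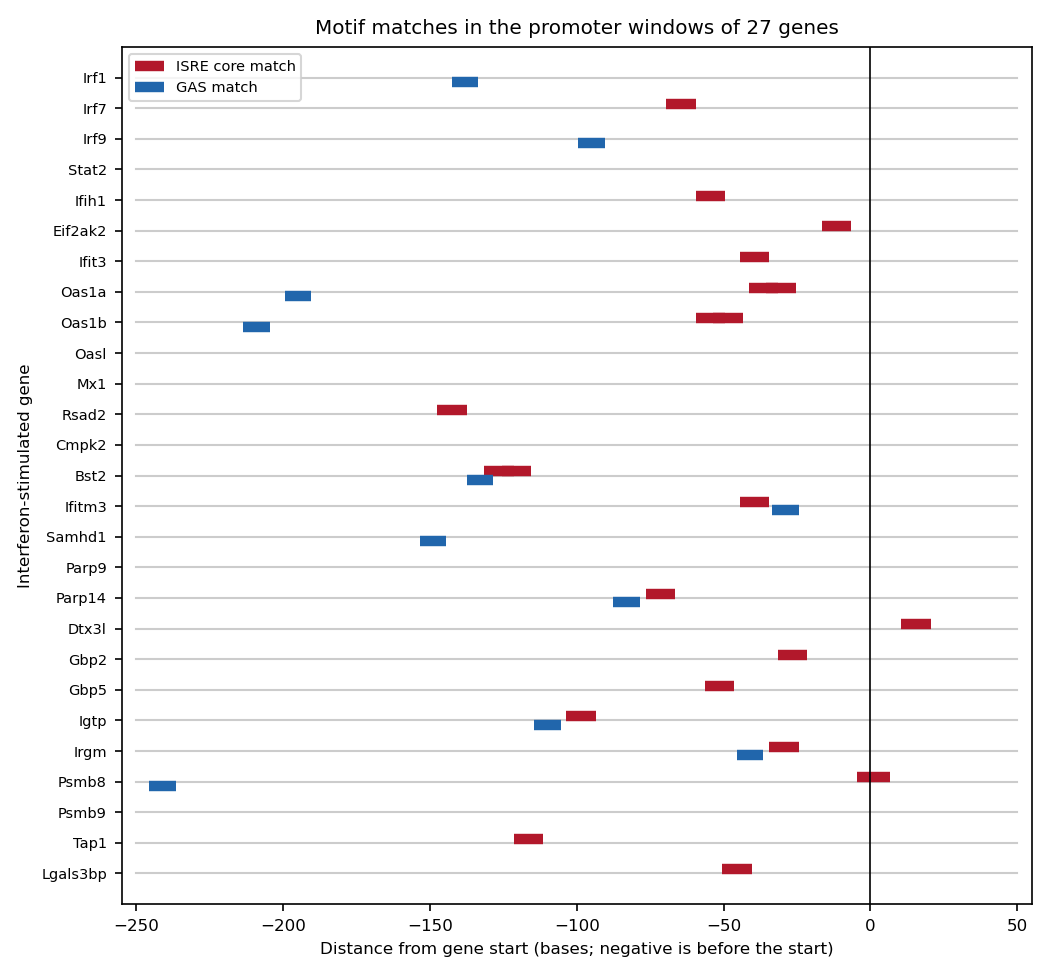
Matches of the ISRE core (red) and the GAS letters (blue) in the promoter windows of 27 interferon-stimulated genes, by distance from the gene start in bases. ISRE cores are found in 18 windows and GAS letters in 11, and 6 windows hold neither.

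The first question was how the list as a whole differed between SCI and sham rats. The log2 fold change, a difference of mean log2 signals, was positive for 35 of 35 genes in SCI/TMX+ minus Sham/TMX+ and for 35 of 35 in SCI/TMX- minus Sham/TMX-, where 47.3% and 48.5% of all transcripts were positive. The median over the genes was 1.14 with TMX and 1.02 without, against -0.02 and -0.01 over all transcripts. A gene was called at a limma adjusted p under 0.05, taken over all 23188 transcripts, if it also changed by more than 1 on the log2 scale. The list was chosen with earlier results of these data known. Its shares beside those of all transcripts are therefore a description.

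In SCI/TMX+ minus Sham/TMX+, 21 of the 35 genes were called higher, against 1.93% of all transcripts, and 0 were called lower, against 1.11%. In SCI/TMX- minus Sham/TMX-, 19 were called higher, against 1.98%, and 0 lower, against 1.07%. By limma, 0 genes were lower at an unadjusted p under 0.05 in either comparison, against 23.8% of all transcripts with TMX and 22.2% without. Together, 18 genes were called in both comparisons, and 22 in at least 1 of them. Without animals 13c and 15c, 21 and 22 genes were called. These are the lowest rats of SCI/TMX-, so leaving them out favours a higher count without TMX. By adjusted p alone, 31 genes were higher with TMX (14.3% of all transcripts) and 28 without (12.8%). Every SCI rat lay above every sham rat of the same treatment for 25 genes with TMX (9.16% of all transcripts) and for 23 without (8.96%). These comparisons share no array.

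Arrays carried other changes in the same rats. Of 9 genes of monocytes and macrophages measured, 8 were higher in SCI/TMX- than in Sham/TMX- by adjusted p. Of all transcripts, 12.8% were higher by this rule. Their mean log2 signal was 6.67 to 7.06 in SCI/TMX+, 6.61 to 7.33 in SCI/TMX-, 5.35 to 5.48 in Sham/TMX+ and 5.26 to 5.62 in Sham/TMX- rats, with no overlap between SCI and sham. In that list Adgre1, the macrophage antigen F4/80, had the lowest mean signal in each group (3.56 to 3.89). Of 7 neutrophil genes, 5 were higher (4.57 to 4.94, 4.68 to 5.17, 3.54 to 3.80 and 3.62 to 4.19 in the same order of groups). Of 10 genes of T and NK cells, Cd3d alone was higher by this test, and their mean signal was 2.93 to 3.11, 3.06 to 3.22, 2.94 to 3.17 and 2.91 to 3.15. Most genes of neurons (5 of 5), microglia (4 of 5) and astrocytes (4 of 5) and 2 of 4 of oligodendrocytes were lower by adjusted p, against 17.8% of all transcripts. Of 5 endothelial genes, 2 were higher and 0 lower, and their mean signal was 6.97 to 7.33, 6.93 to 7.40, 6.64 to 6.93 and 6.33 to 6.87 in the same order of groups. All 4 red blood cell genes measured were higher. Their mean signal was 7.69 to 8.34, 7.29 to 8.40, 5.22 to 6.36 and 5.32 to 6.23 in that order. The part of these cell types in the interferon genes was not tested.

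**Figure D2:**
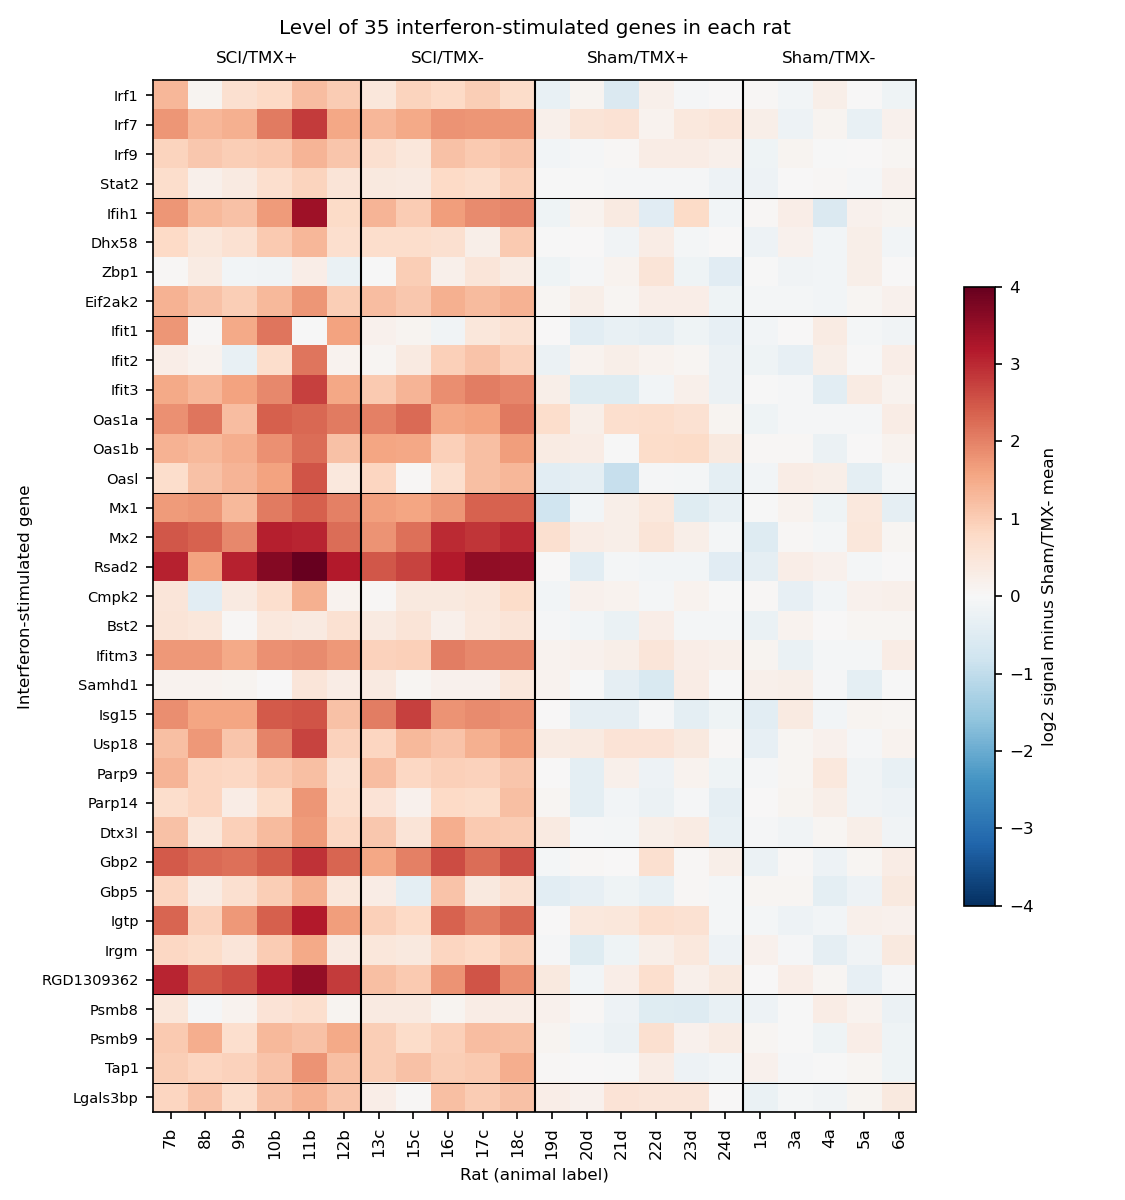
Log2 signal of the 35 genes in each of the 22 rats, minus the Sham/TMX- mean of the gene, with genes in rows grouped by role and rats in columns grouped by treatment. The SCI columns are above the sham columns for most genes, and animal 11b of SCI/TMX+ is the highest SCI rat in 24 of the 35 rows.

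The transcription factors that carry the response were each higher after SCI by adjusted p, and Irf7 was the only 1 of these 4 past the fold change minimum. Irf7 amplifies the production of type I interferon. Its log2 signal was 6.01, 6.32 and 7.48 (lowest, median and highest) in SCI/TMX+ rats, against 4.81, 5.13 and 5.24 in Sham/TMX+ rats. It was 5.99, 6.17, 6.46, 6.42 and 6.45 in the 5 SCI/TMX- rats, against 4.90, 4.46, 4.77, 4.38 and 4.84 in the 5 Sham/TMX- rats. All SCI rats were above all sham rats, and the log2 fold changes were 1.43 with TMX (standard error 0.18, limma adjusted p = 4.13e-07) and 1.63 without (0.19, 3.39e-07). Irf9, the DNA-binding subunit of ISGF3, was at 0.97 with TMX and 0.89 without, Irf1, a factor induced by interferon gamma, at 0.95 and 0.78, and Stat2, the ISGF3 subunit that activates transcription, at 0.62 and 0.64.

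Among the 4 sensors of foreign nucleic acid, 2 were called in each comparison. Ifih1, which detects long double-stranded RNA, had log2 signals of 4.44, 5.18 and 7.08 in SCI/TMX+ rats, against 3.23, 3.70 and 4.45 in Sham/TMX+ rats. Its signals were 5.03, 4.71, 5.35, 5.57 and 5.62 in SCI/TMX- rats, against 3.73, 3.93, 3.11, 3.84 and 3.80 in Sham/TMX- rats. The lowest SCI/TMX+ rat lay just under the highest Sham/TMX+ rat, while the TMX- groups did not overlap, and the log2 fold changes were 1.59 (standard error 0.29, limma adjusted p = 1e-04) and 1.58 (0.32, 3.85e-04). Animal 11b held the highest value, and without it the change with TMX was 1.25. Eif2ak2, the kinase that halts translation on double-stranded RNA, rose by 1.14 with TMX and 1.28 without. Dhx58, a helicase that tunes Ifih1, was at 0.81 and 0.66, short of the minimum, and Zbp1, a sensor of Z-form nucleic acid, at 0.05 and 0.40, with adjusted p-values of 0.838 and 0.0704.

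The IFIT and OAS antiviral proteins were called in 5 of 6 cases with TMX and in 3 of 6 without. IFIT proteins bind viral RNA, and OAS enzymes make the oligoadenylates that activate RNase L. Oas1a had log2 signals of 4.77, 5.66 and 5.95 in SCI/TMX+ rats, against 3.64, 4.19 and 4.24 in Sham/TMX+ rats. In SCI/TMX- rats the signals were 5.57, 5.81, 5.10, 5.15 and 5.66, against 3.39, 3.50, 3.50, 3.50 and 3.84 in Sham/TMX- rats. The groups did not overlap, with log2 fold changes of 1.50 (standard error 0.16, limma adjusted p = 7.54e-08) and 1.91 (0.18, 9.68e-09). Oas1b, which lies next to Oas1a, had 5.57, 5.83 and 6.65 in SCI/TMX+ rats, against 4.40, 4.77 and 5.17 in Sham/TMX+ rats. It had 6.00, 5.95, 5.36, 5.63 and 6.07 in SCI/TMX- rats, against 4.46, 4.45, 4.17, 4.44 and 4.55 in Sham/TMX- rats. Again every SCI rat was above the sham rats, and Oas1b rose by 1.14 (standard error 0.16, limma adjusted p = 2.94e-06) and 1.39 (0.17, 8.42e-07). Probes may not tell these close relatives apart, so the share of each in the signal is uncertain. Ifit3, which steadies Ifit1 on RNA in human cells, rose by 1.93 with TMX and 1.65 without. Ifit2 was at 0.49 and 0.69, with adjusted p-values of 0.16 and 0.0713. Oasl and Ifit1 passed only with TMX and are described with the TMX comparison.

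Among the Mx proteins and other antiviral effectors, 4 of 7 were called in each comparison, and they held the largest change of the list. Rsad2, or viperin, makes a nucleotide that ends viral RNA chains. Its log2 signal was 5.28, 6.79 and 7.90 in SCI/TMX+ rats, against 3.20, 3.55 and 3.68 in Sham/TMX+ rats. In the TMX- rats it was 6.15, 6.37, 6.82, 7.21 and 7.16 after SCI, against 3.29, 3.93, 3.84, 3.57 and 3.66 after sham surgery. The lowest SCI rat, 8b, was still well above the highest sham rat, and the log2 fold changes of 3.33 (standard error 0.27, limma adjusted p = 4.35e-10) and 3.09 (0.29, 1.19e-08) were folds of 10.1 and 8.49.

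Mx2, a GTPase of the dynamin family that restricts viruses, had log2 signals of 6.98, 7.49 and 8.16 in SCI/TMX+ rats, against 4.96, 5.32 and 5.69 in Sham/TMX+ rats. Its signals were 6.86, 7.25, 8.04, 7.93 and 8.07 in SCI/TMX- rats, against 4.55, 5.11, 4.97, 5.51 and 5.13 in Sham/TMX- rats. No SCI rat reached down to a sham rat, and Mx2 rose by 2.23 (standard error 0.21, limma adjusted p = 7.49e-09) and 2.58 (0.23, 4.04e-09). Its neighbour Mx1 rose by 2.05 and 1.94, and Ifitm3, which stops viruses from fusing with membranes, by 1.49 and 1.55. Bst2, the tether that holds virions to the cell, was at 0.45 and 0.40, with an adjusted p under 0.05 in both.

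The remaining effectors passed neither the adjusted p nor the minimum. Cmpk2, a mitochondrial nucleotide kinase encoded next to Rsad2, had log2 signals of 6.29, 7.13 and 8.14 in SCI/TMX+ rats, against 6.61, 6.76 and 6.88 in Sham/TMX+ rats. It had 6.76, 7.08, 7.09, 7.17 and 7.43 in SCI/TMX- rats, against 6.74, 6.39, 6.60, 6.86 and 6.92 in Sham/TMX- rats. The groups overlapped, and the changes were 0.41 (standard error 0.19, limma adjusted p = 0.0931) and 0.40 (0.20, 0.143). Samhd1, which degrades deoxynucleotides, had 5.22, 5.36 and 5.68 in SCI/TMX+ rats, against 4.60, 5.19 and 5.52 in Sham/TMX+ rats. In SCI/TMX- rats it had 5.57, 5.29, 5.38, 5.38 and 5.66, against 5.41, 5.44, 5.17, 4.84 and 5.19 in Sham/TMX- rats. These groups overlapped too, at 0.29 (standard error 0.13, limma adjusted p = 0.0826) and 0.25 (0.14, 0.202).

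Of the genes of ISG15 conjugation and ADP-ribosylation, 4 of 5 were called in each comparison. Isg15, a protein that is joined to others like ubiquitin, had log2 signals of 4.08, 4.63 and 5.44 in SCI/TMX+ rats, against 2.53, 2.66 and 2.92 in Sham/TMX+ rats. It had 4.95, 5.65, 4.72, 4.81 and 4.76 in SCI/TMX- rats, against 2.51, 3.28, 2.79, 3.02 and 2.98 in Sham/TMX- rats. The SCI and sham rats did not overlap, and Isg15 rose by 2.07 (standard error 0.19, limma adjusted p = 5.08e-09) and 2.06 (0.21, 3.53e-08). Usp18, which removes ISG15 and damps the type I receptor, rose by 1.23 and 1.28. Parp9, which acts with the ubiquitin ligase Dtx3l, was at 1.06 and 1.01, Dtx3l itself at 0.98 and 1.02, and Parp14, an ADP-ribosyltransferase, at 1.02 and 0.69. Each of these 3 lies near the minimum of 1 in at least 1 comparison, so its calls change when single arrays are left out, and Parp9 and Dtx3l overlap on the chromosome.

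The guanylate-binding and immunity-related GTPases, which attack vacuoles that hold microbes, were called in 3 of 5 cases in each comparison. Their median changes, 1.69 and 1.68, were the highest of the role classes. Gbp2 had log2 signals of 8.46, 8.64 and 9.15 in SCI/TMX+ rats, against 6.17, 6.29 and 6.89 in Sham/TMX+ rats. It had 7.79, 8.26, 8.87, 8.50 and 8.83 in SCI/TMX- rats, against 6.01, 6.32, 6.05, 6.34 and 6.56 in Sham/TMX- rats. Every SCI rat was far above the sham rats, and the log2 fold changes were 2.29 (standard error 0.16, limma adjusted p = 3.11e-11) and 2.19 (0.17, 4.88e-10), the smallest p-values of the list. Igtp rose by 1.69 in both comparisons, while Irgm was at 0.86 and 0.70, with an adjusted p under 0.05 but short of the minimum. Members of these families have close relatives in the genome, so their probes may share signal. RGD1309362 and Gbp5 are described with the TMX comparison.

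Antigen processing was represented by 3 genes, 2 of them called in each comparison. Tap1, which carries peptides into the endoplasmic reticulum for MHC class I, had log2 signals of 6.71, 6.90 and 7.62 in SCI/TMX+ rats, against 5.63, 5.83 and 6.13 in Sham/TMX+ rats. It had 6.81, 7.00, 6.81, 6.88 and 7.29 in SCI/TMX- rats, against 5.99, 5.80, 5.81, 5.90 and 5.68 in Sham/TMX- rats. The SCI rats all lay above the sham rats, and Tap1 rose by 1.15 (standard error 0.12, limma adjusted p = 6.31e-08) and 1.12 (0.14, 5.44e-07). Psmb9, a subunit of the immunoproteasome encoded beside Tap1, was called at 1.04 and 1.02, and the subunit Psmb8 was at 0.52 and 0.29, with adjusted p-values of 0.00227 and 0.124.

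Lgals3bp, a secreted glycoprotein that binds galectins, was the last gene of the list. Its log2 signal was 7.54, 7.95 and 8.23 in SCI/TMX+ rats, against 6.84, 7.20 and 7.39 in Sham/TMX+ rats. In the TMX- rats it was 7.10, 6.89, 8.05, 7.83 and 7.99 after SCI, against 6.57, 6.74, 6.68, 6.94 and 7.23 after sham surgery. Animals 13c and 15c reached into the range of the sham rats here, and the changes of 0.73 (standard error 0.17, limma adjusted p = 0.00134) and 0.74 (0.19, 0.00301) were short of the minimum.

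**Figure D3:**
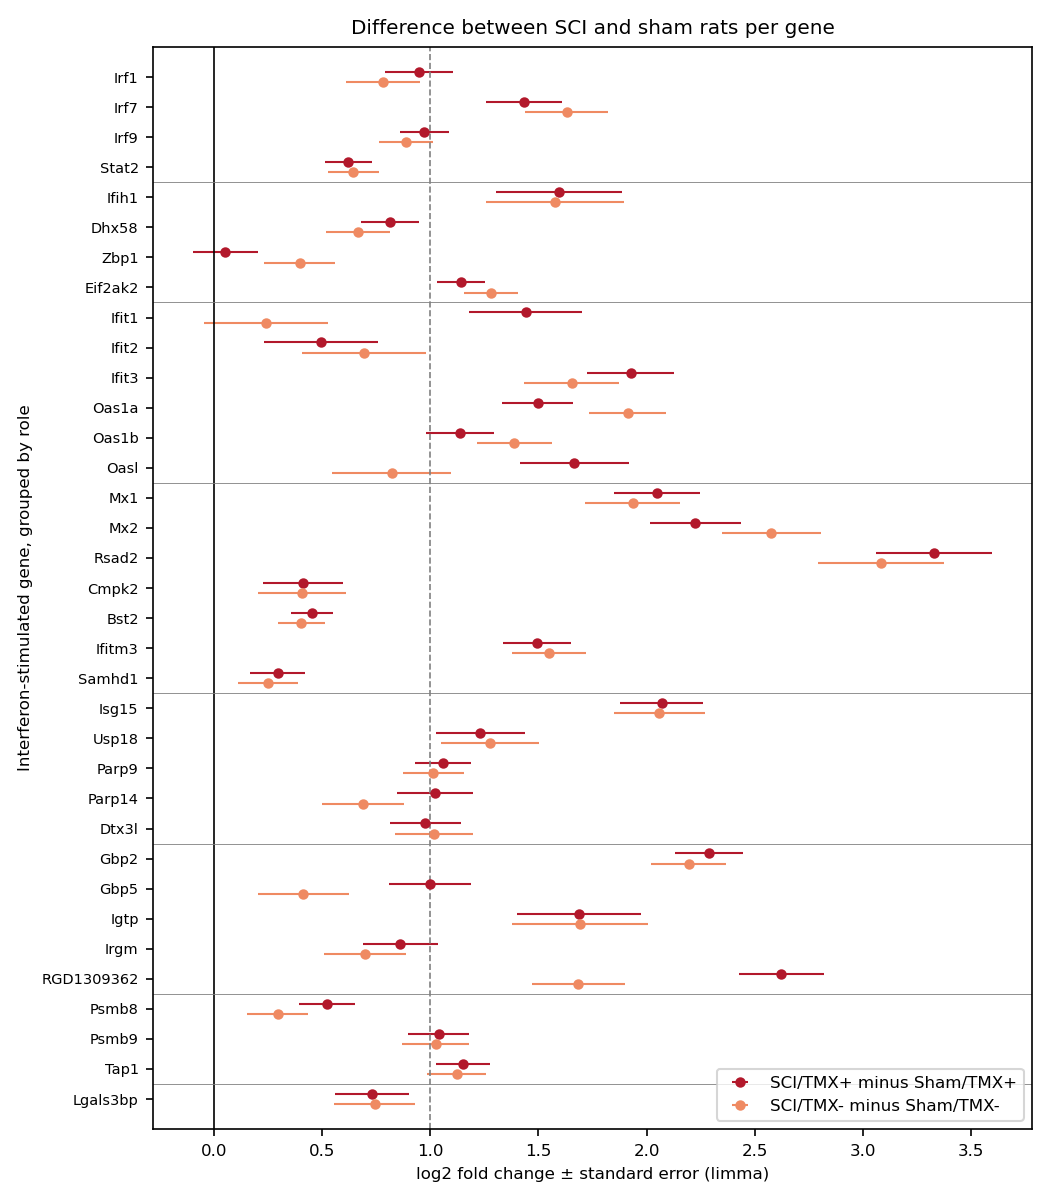
Log2 fold change of each gene between SCI and sham rats with its limma standard error, with TMX (dark red) and without (light red), in role classes separated by lines. All 35 genes lie above 0, and 21 with TMX and 19 without are called past the dashed line at 1.

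Next, SCI/TMX+ rats were compared with SCI/TMX- rats to find what TMX changed in the injured cord. Following the thresholds of the study's methods, calling a gene here took an unadjusted p under 0.05 together with more than 0.7 on the log2 scale. RGD1309362 and Ifit1 were called higher, 2 of 35 genes against 0.0992% of all transcripts, and 0 genes were called lower, against 0.0302%. The list was chosen with earlier results of these data known, so these shares are a description and no test of the list. By adjusted p alone, RGD1309362 was the 1 gene to pass (0.0173% of all transcripts). The log2 fold change was positive for 25 of the 35 genes, against 48.4% of all transcripts, with a median of 0.11. For 0 of 35 genes did the groups stand apart with every SCI/TMX+ rat higher, against 0.418% of all transcripts. No marker of the cell types above passed an adjusted p under 0.05 in this comparison. That rule is stricter than the one used for the genes. Only 0.0173% of all transcripts passed it as higher and 0.00431% as lower. The study reported the monocyte gene Ccr2 as lower with TMX in SCI rats at its unadjusted thresholds.

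RGD1309362, whose RefSeq synonym is Ifgga1, is an interferon-inducible GTPase gene on chromosome 18. Its log2 signal was 8.37, 7.78, 7.95, 8.45, 8.86 and 8.13 in the 6 SCI/TMX+ rats, against 6.52, 6.39, 7.13, 7.86 and 7.18 in the 5 SCI/TMX- rats. Only 17c among the SCI/TMX- rats reached into the SCI/TMX+ range, and 13c and 15c were the lowest. Sham/TMX+ rats had 5.22, 5.67 and 6.00 (lowest, median and highest), against 5.35, 5.60, 5.42, 5.00 and 5.30 in Sham/TMX- rats. TMX in SCI gave a log2 fold change of 1.24 (standard error 0.21, limma adjusted p = 0.0129), a fold of 2.37. Without 13c and 15c it was 0.87 (limma adjusted p = 0.142), still called at the unadjusted threshold. The adjusted p was 0.106 with array weights and 0.362 with only the 2 SCI groups in the fit. The study gives the symbol RGD1309362 to a further transcript, though the annotation used here does not. This transcript correlated with the first at r = 0.99 over the 22 arrays. It changed by 1.20 (standard error 0.24, limma adjusted p = 0.0673). Whether the probes of both transcripts share signal was not tested. Against sham rats RGD1309362 rose by 2.62 with TMX (standard error 0.20, limma adjusted p = 1.32e-10) and by 1.68 without (0.22, 1.15e-06).

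Ifit1, which binds viral RNA by its free end, behaved unevenly among the SCI/TMX+ rats. Their log2 signals were 5.37, 3.64, 5.13, 5.75, 3.58 and 5.19 for 7b to 12b, against 3.78, 3.70, 3.44, 4.04 and 4.21 in SCI/TMX- rats. Thus 4 of the 6 SCI/TMX+ rats were above all SCI/TMX- rats, and 8b and 11b lay within their range. The log2 fold change was 0.94 (standard error 0.28, limma unadjusted p = 0.00215, adjusted p = 0.212). Sham/TMX+ rats had 3.17, 3.29 and 3.61, against 3.47, 3.61, 3.92, 3.52 and 3.46 in Sham/TMX- rats. Against sham rats Ifit1 rose by 1.44 with TMX (standard error 0.26, limma adjusted p = 9.35e-05) and was at 0.24 without (0.29, 0.586).

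Zbp1 had an unadjusted p under 0.05 in the other direction, at -0.37 (standard error 0.16, limma unadjusted p = 0.0254, adjusted p = 0.389). By that p alone 1 of 35 genes was lower, against 4.51% of all transcripts, and 2 were higher, against 5.94%. The mean log2 signal of Zbp1 was low, at 2.59, the 8.6th percentile of all transcripts. Its log2 signals were 2.25, 2.46 and 2.84 in SCI/TMX+ rats, against 2.48, 3.47, 2.72, 2.98 and 2.83 in SCI/TMX- rats. Sham/TMX+ rats had 2.06, 2.40 and 3.02, against 2.49, 2.37, 2.40, 2.73 and 2.52 in Sham/TMX- rats. All 4 groups overlapped, with 15c the highest rat.

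Oasl, an OAS-like protein that strengthens RNA sensing in human cells, had log2 signals of 3.99, 4.86 and 6.09 in SCI/TMX+ rats, against 4.44, 3.64, 4.27, 4.78 and 4.90 in SCI/TMX- rats. Sham/TMX+ rats had 2.65, 3.22 and 3.53, against 3.49, 3.89, 3.83, 3.20 and 3.51 in Sham/TMX- rats. The SCI groups overlapped, and TMX in SCI gave 0.47 (standard error 0.26, limma adjusted p = 0.548). Against sham rats Oasl rose by 1.67 with TMX (standard error 0.25, limma adjusted p = 8.73e-06), and without TMX it was at 0.82 (0.28, 0.0243).

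Gbp5, a guanylate-binding protein that helps assemble an inflammasome, had 5.05, 5.48 and 6.14 in SCI/TMX+ rats, against 5.01, 4.34, 5.85, 5.11 and 5.35 in SCI/TMX- rats. In sham rats it had 4.31, 4.48 and 4.76 with TMX, against 4.81, 4.80, 4.32, 4.53 and 5.12 without. Here the SCI groups also overlapped, at 0.37 (standard error 0.20, limma adjusted p = 0.524). Against sham rats Gbp5 was just under the minimum with TMX (limma adjusted p = 0.000169), and at 0.41 without (adjusted p = 0.149).

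**Figure D4:**
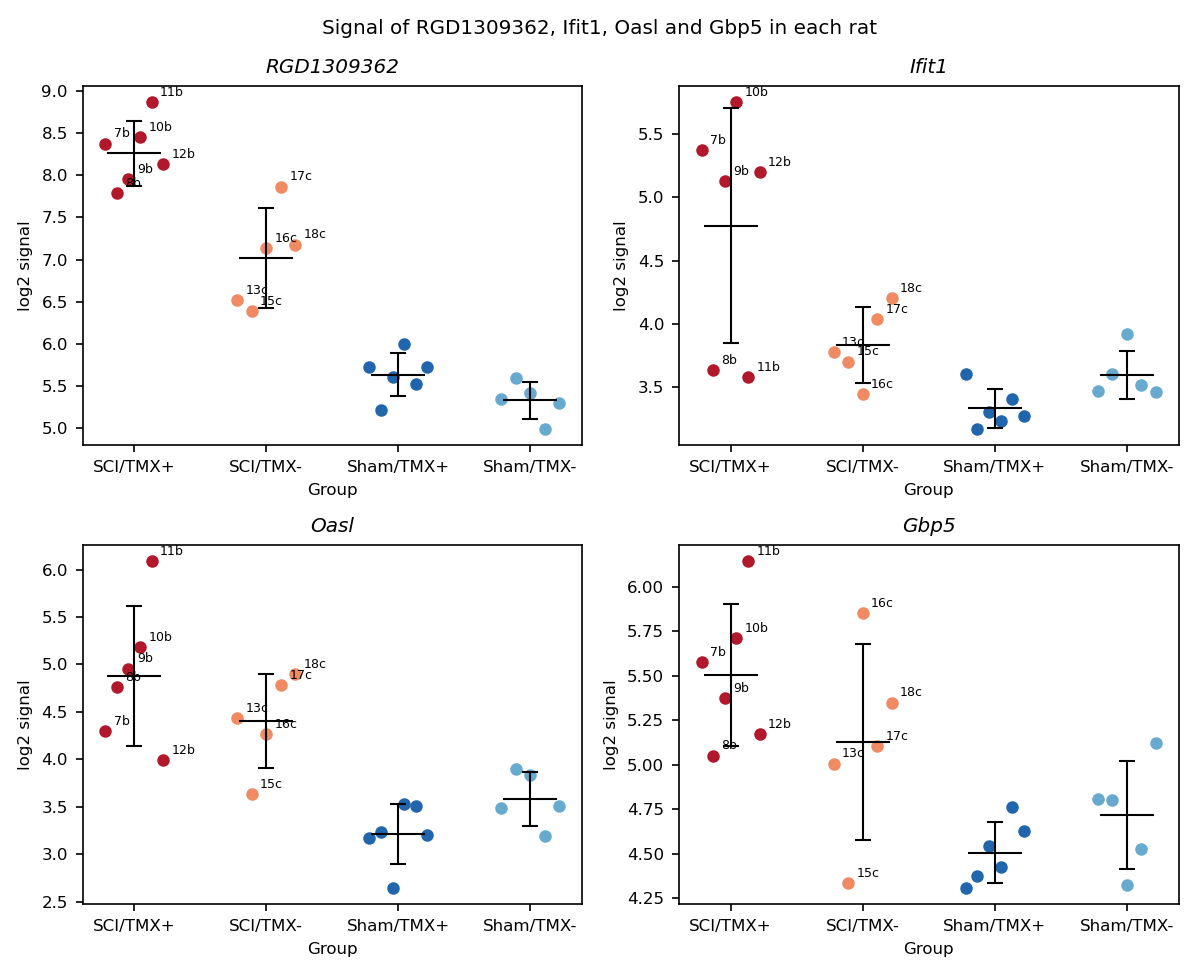
Log2 signal of RGD1309362, Ifit1, Oasl and Gbp5 in each rat by group, with bars for the mean and SD. For RGD1309362, 17c is the SCI/TMX- rat within the SCI/TMX+ range, and for Ifit1, 8b and 11b lie among the SCI/TMX- rats.

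In sham rats, TMX+ was compared with TMX- to see the drug without injury. At the same thresholds limma called 0 of 35 genes, against 0.0302% of all transcripts in either direction, and 0 passed an adjusted p under 0.05. At an unadjusted p under 0.05, 3 genes were higher and 0 lower, where 2.88% of all transcripts were higher and 2.58% lower. These were Oas1a at 0.50 (standard error 0.17, unadjusted p = 0.00759, adjusted p = 0.789), Oas1b at 0.42 (adjusted p = 0.831) and Irf7 at 0.39 (adjusted p = 0.898), whose sham values are given above. The sham groups overlapped for all 3 genes. This comparison shares the Sham/TMX- and Sham/TMX+ arrays with the SCI comparisons.

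The interaction tested whether TMX changed a gene differently in SCI and in sham rats. By limma 0 of 35 genes passed an adjusted p under 0.05, where 0% of all transcripts passed. At an unadjusted p under 0.05, 4 genes were higher and 0 lower, where 3.54% of all transcripts were higher and 3.3% lower. Ifit1 had a difference of 1.20 (standard error 0.39, unadjusted p = 0.0049, adjusted p = 0.558), RGD1309362 of 0.94 (0.29, 0.00355, 0.523), Oasl of 0.84 (0.37, 0.0328, 0.688) and Gbp5 of 0.59 (0.28, 0.0495, 0.73). So the SCI differences of these 4 genes with and without TMX, though on different sides of a threshold for some, were not shown to differ after adjustment.

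The spread among injured rats was followed with a score, the mean over the 35 genes of the log2 signal above the Sham/TMX- mean. The score was 1.31 ± 0.34 (SD, n = 6) in SCI/TMX+, 1.16 ± 0.22 (SD, n = 5) in SCI/TMX-, 0.05 ± 0.10 (SD, n = 6) in Sham/TMX+ and 0 by definition ± 0.05 (SD, n = 5) in Sham/TMX-. In SCI/TMX+ rats it was 1.30, 1.01, 1.03, 1.50, 1.89 and 1.12 for 7b to 12b. In SCI/TMX- rats it was 0.92, 0.94, 1.24, 1.30 and 1.42 for 13c to 18c. Sham rats lay between -0.07 and 0.18 with TMX and between -0.08 and 0.06 without, so the lowest SCI rat was well above the highest sham rat, while the SCI groups overlapped. The difference between SCI/TMX+ and SCI/TMX- was 0.15, 0.03 without 11b and -0.01 without 13c and 15c, so its direction was not kept without these 2 rats. They have the lowest scores of SCI/TMX-, and 11b has the highest of SCI/TMX+. Leaving these rats out therefore lowers the difference by construction. The genes also spread more among SCI rats. Their median SD was 0.40 in SCI/TMX+, 0.32 in SCI/TMX-, 0.22 in Sham/TMX+ and 0.22 in Sham/TMX-, where the median over all transcripts was 0.18, 0.21, 0.16 and 0.16. The widest was Ifit1 in SCI/TMX+ (SD 0.93) and Igtp in SCI/TMX- (SD 0.77).

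Animal 11b, with the highest score, was the highest SCI rat in 24 of the 35 genes. In the same array the 5 neuronal genes averaged -0.31 from their Sham/TMX- mean, the highest value among the SCI rats, and the genes of monocytes and macrophages 1.38. Animals 13c and 15c, with the lowest scores, had the lowest values of the neuronal genes (-0.85 and -0.73) and of the monocyte genes (1.24 and 1.28). They also had the lowest values of red blood cell genes, at 1.48 and 1.42, where the other SCI rats had 1.82 to 2.53. The part of tissue make-up in the score was not tested.

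**Figure D5:**
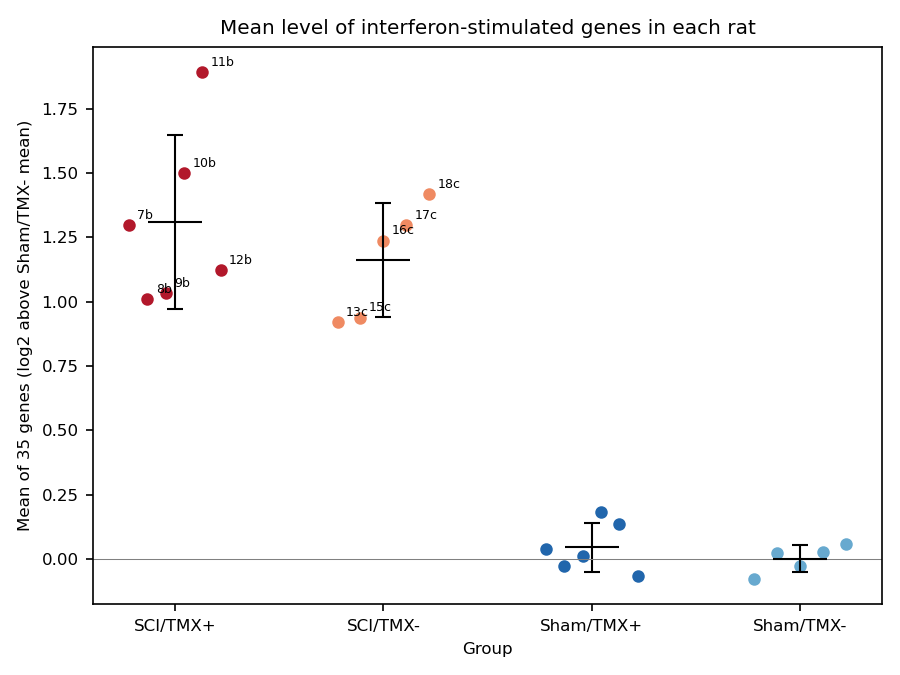
Mean of the 35 genes in each rat (log2 above the Sham/TMX- mean) by group, with bars for the mean and SD. SCI rats lie between 0.92 and 1.89 and sham rats between -0.08 and 0.18, and 11b is the highest.

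Across the 11 SCI arrays, after subtraction of each group's mean, the genes tended to move together. The median Pearson correlation over the 595 pairs of genes was 0.51, and 87.2% of pairs were positive, where the median over all pairs of transcripts was about 0. Without 11b the median was 0.35. In the 11 sham arrays it was 0.12, with 59.7% of pairs positive. The pairs share the same arrays, so this is a description. Pairs within the type I list had a median of 0.49, pairs within the gamma list 0.55 and pairs between the lists 0.55. Irf7 followed the mean of the other genes most closely (r = 0.96), and Ifit2, Irgm and Ifit3 each had 0.93. At the other end stood Zbp1 (0.04), Bst2 (0.03) and Ifit1 (-0.18). Ifit1 thus had the widest spread in SCI/TMX+ and followed the list least.

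Among 15014 named transcripts outside the list, 10 were most like its mean over the 11 SCI arrays. Cxcl10, a chemokine gene induced by interferon gamma, had r = 0.94, and Cmtr1, a cap-modifying enzyme, had 0.93. RT1-S3, an MHC class I gene, had 0.92. The highest was Slc3a2, a subunit of amino acid transporters, at 0.96, followed by Ntrk2, a neurotrophin receptor, and Nqo1, an oxidoreductase, both at 0.95. Pde4d and Slc39a14 had 0.93, and Trmt11 and Max 0.92. In SCI/TMX- minus Sham/TMX-, Ntrk2 and Pde4d were lower, at -0.59 and -0.60 (limma adjusted p = 8.63e-06 and 0.00181). Cmtr1, Trmt11 and Max were at 0.05, -0.04 and 0.19 (limma adjusted p = 0.799, 0.865 and 0.0635). Slc3a2, Nqo1, Cxcl10, Slc39a14 and RT1-S3 were higher by adjusted p. Likeness was measured on the same 11 arrays, of which 11b is the highest for the list.

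The rest of the interferon pathway was followed through 60 further genes, of which 11 were called higher in each SCI comparison, against 1.93% of all transcripts with TMX and 1.98% without, and 1 lower without TMX, against 1.07%. None of 6 interferon genes passed. Ifnb1, the type I interferon that many cells make first, was at 0.22 with TMX (standard error 0.11, limma adjusted p = 0.143) and 0.20 without (0.12, 0.261). Ifng, made by T and NK cells, was at 0.13 and 0.06. Ifna2, Ifna4, Ifna5 and Ifnk lay between -0.07 and 0.13, so no change of these transcripts was detectable at 24 h in this tissue. Their signal levels are not given here. Unchanged transcripts and transcripts too low to measure are therefore not told apart.

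Of the receptors, Ifngr2, the signalling chain of the interferon gamma receptor, was at 0.57 with TMX (limma adjusted p = 0.000248) and 0.35 without (0.0335), below the minimum fold. Its partner Ifngr1 was at 0.39 and 0.16, the type I receptor chain Ifnar1 at 0.11 and 0.08, Il10rb, a chain of the type III receptor, at 0.41 and 0.33, and Ifnlr1, the other chain, at 0.00 and -0.05. Of the kinases, Jak2 was at 0.66 and 0.57, Jak1 at 0.34 and 0.38 and Tyk2 at 0.00 and -0.10. Upstream, Myd88, the adaptor of Toll-like receptors, rose by 1.54 and 1.39. Tlr3, a receptor for double-stranded RNA, was at -0.80 with TMX, and fell by 1.19 without TMX (standard error 0.23, limma adjusted p = 0.000176).

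Of the negative regulators, Socs3, which blocks JAK kinases, rose by 3.32 (standard error 0.17, limma adjusted p = 1.46e-13) and 3.42 (0.19, 7.27e-13), and the phosphatase Ptpn2 by 1.06 and 1.05. Socs1, the inhibitor named with interferon gamma, was at 0.44 and 0.48. Of 25 other interferon-stimulated genes, 8 were called higher in each SCI comparison, against the same 1.93% and 1.98%. The chemokine genes Cxcl11 and Cxcl10 rose by 3.73 and 2.21 with TMX and by 2.96 and 2.01 without, and Ifitm1, a relative of Ifitm3, by 2.84 and 2.59. Cxcl11 was the 1 pathway gene called with TMX in SCI, at 0.74 (standard error 0.29, limma adjusted p = 0.363). Oas2, Oas3, Ifi27, Tap2 and Ciita lay between -0.07 and 0.22 in the SCI comparisons, and none of them passed an adjusted p under 0.05.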

How the data were processed

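The authors made the deposited log2 values from Clariom S arrays (22 rats, 1 array each, RIN at least 7; 2 of 24 rats were dropped for RNA quality) by RMA in oligo 1.56: background correction, quantile normalization and a summary of the probes of each transcript. The submitters' processing notes also name limma 3.48.3. Depth has no meaning for arrays, and the number of arrays limits precision. The platform annotation named 15049 of the 23188 transcripts.

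From these values limma 3.58.1 (R 4.3.3) fitted 4 group means to every transcript and tested 5 contrasts, two-sided, with 18 residual degrees of freedom and Benjamini-Hochberg adjustment over all transcripts. The SCI contrasts needed an adjusted p under 0.05 and a change over 1, the TMX contrasts, as in the study's methods, an unadjusted p under 0.05 and a change over 0.7, and the interaction only the adjusted p. The score over the genes has no test. The steps were tested on simulated data.

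The members, lists and tests were chosen with earlier results of these data known. Values within groups are given per rat in the TMX- groups and mostly as lowest, median and highest in the TMX+ groups. They cover the genes with the 4 largest moderated t in each of 4 contrasts. These contrasts are SCI/TMX- minus Sham/TMX-, both TMX contrasts and the interaction. Also covered are genes past a TMX threshold, the 3 smallest changes short of the SCI thresholds, and the highest of each role class. Promoters came from RefSeq (GRCr8) and were searched with Python 3.11.15.

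Alternatives were another prior for eBayes, low-signal transcripts left out, array medians subtracted, array weights, the replicate block, only the groups compared, the mean over transcripts of a symbol, the median in place of the mean score, other thresholds, and arrays left out. The deposited table was the only file with values per sample, and 4 listed genes with no symbol in the annotation were left out.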

Additional observations from a re-analysis of the deposited data

Results flagged for a closer look

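The 35 genes and the score were examined in each of the 4 groups. In 7 of these 144 combinations, all 7 of single genes, the highest or lowest rat stood apart from the rest of its group by Dixon's 95% criterion. Chance flags about 1 in 20 groups. In injured rats, Isg15 was 5.65 in 15c of SCI/TMX-, with the next rat at 4.95, and Tap1 was 7.62 in 11b of SCI/TMX+, with the next at 7.03. In Sham/TMX+ rats, 22d was highest for Dhx58 at 5.03 (next 4.75) and for Ifitm3 at 9.50 (next 9.28), and 24d was lowest for Stat2 at 6.77 (next 6.92). In Sham/TMX- rats, 4a was lowest for Ifih1 at 3.11 (next 3.73), and 6a was highest for Oas1a at 3.84 (next 3.50).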

How the results depend on the processing

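Of 74 alternative values of the main results, 67 were labelled close to the reported ones and 7 moved. A score was labelled close if it shifted by less than its SD within groups, which was 0.29 in SCI rats. Other values were labelled close within a fixed ratio. This includes 31 and 28 genes called by adjusted p alone, against 21 and 19. The scores without 13c and 15c given below are also among the 67. No called difference changed direction, but small score differences between TMX+ and TMX- did. Without 13c and 15c the score of SCI/TMX+ minus SCI/TMX- was -0.01, against 0.15, and that of the interaction -0.05, against 0.10. These rats have the lowest scores of SCI/TMX-, so both values fall by construction when they are left out. The interaction score was also -0.01 without 11b. With low-signal transcripts left out, which keeps 19 of the 35 genes, 11 genes were called in SCI/TMX+ minus Sham/TMX+, 12 in SCI/TMX- minus Sham/TMX- and 1 in SCI/TMX+ minus SCI/TMX-, fewer because fewer genes were tested, and the mean score of Sham/TMX+ minus Sham/TMX- was 0.14. By adjusted p alone, or with the thresholds of SCI and TMX exchanged, 1 gene was called in SCI/TMX+ minus SCI/TMX-, RGD1309362. The interaction has no such threshold to exchange. In that setting it was called by unadjusted p with the minimum fold change of the TMX comparisons. At this looser rule 3 genes were called for the interaction, against 0 by adjusted p. The share of all transcripts at this rule is not given. By unadjusted p alone, without a minimum fold, 3.54% of all transcripts were higher and 3.3% lower. The 3 calls are therefore a description. With 1 array left out, counts were 18 to 24 in SCI/TMX+ minus Sham/TMX+ (18 without 20d, 24 without 22d), 16 to 20 in SCI/TMX- minus Sham/TMX- (16 without 6a), 2 in SCI/TMX+ minus SCI/TMX-, and 0 in the sham and interaction comparisons. The scores were 1.15 to 1.32, 1.10 to 1.22, 0.03 to 0.21, 0.02 to 0.07 and -0.01 to 0.17 in the same order. The correlation of the genes in SCI rats was 0.35 to 0.57, a check added after seeing the data. With the replicate block, 21, 19, 2, 0 and 0 genes were called, so the block changed no count. Rats that share a replicate number are not otherwise linked, and the deviations of 31 such pairs of arrays correlated at -0.21 to 0.23, 5 of them over 0.1. The genes whose calls change with 1 array left out are those near the minimum of 1, such as Parp9, Psmb9, Dtx3l, Parp14, Irf9 and Gbp5. Signals of 16 genes lay below the median of all transcript means, where small changes are hardest to measure.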
